A study of Mus musculus with 4 samples.

Results

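Mab21l2, Cited2 and Wnt1 are the 3 genes that stood highest, by adjusted p, among genes with raised coverage in Mettl3 knockout (KO) retinal organoids. They were therefore chosen on the coverage contrast between KO and wild type, and their coverage is given as a description, without a test. They are 3 of 8297 protein-coding genes with a coverage value in every library. Their listed sites were those inside the gene's deposited start, end and strand: 19 and 24 per wild-type library and 63 and 51 per KO library, at 139 of 881997 positions in all.

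The libraries came from day 4 mouse retinal organoids, tissue grown from pluripotent stem cells towards the eye field. The 2 wild-type libraries were of the Rx:GFP line, which carries a green fluorescent reporter of the eye field gene Rax. The 2 KO libraries were of a Mettl3 KO Rx:GFP line, which per the labels' protocols also harboured Dox-inducible HA-METTL3, with no addition of doxycycline recorded. Whether the KO line is 1 clone is not given in the sources used here. All 4 libraries were grown in GMEM with KSR, NEAA, β-ME, sodium pyruvate and AGN, carry the treatment label "No" and share 1 batch label. Each was made by GLORI, in which glyoxal and nitrite convert unmodified adenosine so that it reads as G while N6-methyladenosine (m6A) still reads as A. The share of unconverted reads at a position is called its level. Nothing in the labels says that the 2 libraries of a line came from separate cultures, so p-values measure only the spread between these libraries.

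METTL3 is the enzyme that places most m6A on mRNA. The mark is known for shortening the life of many transcripts, often from sites near the stop codon and in the last exon. Mab21l2 encodes a nuclear protein needed for growth of the lens and optic cup. Cited2 encodes a transcriptional co-regulator that binds CBP and p300, is induced by hypoxia and restrains HIF1A. Wnt1 encodes a secreted ligand of the canonical Wnt pathway, made in the dorsal neural tube and at the border of midbrain and hindbrain, where Wnt signalling opposes anterior fates such as the eye field.

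Each list held sites with a coverage of at least 15 reads, at least 5 unconverted reads and a level of at least 0.1. No site had an authors' p-value above 0.004. A position missing from a list could thus be converted, thinly covered or left out by the authors' p-value. Median coverage per listed site was 38 to 41 reads in the 4 libraries. The median gene had a deposited coverage of 50.3 and 57.3 reads (wild type) and 53.3 and 46.3 reads (KO). Mettl3 itself was at 1.01 and 0.801 times that gene in wild-type organoids and at 1.16 and 1.04 times in KO organoids (limma adjusted p 0.348), so its coverage did not fall in the libraries labelled KO.

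The stretch before each gene's start is shown because the genes were chosen for rising together. The sequences are RefSeq's on GRCm38.p6, for the 250 bases upstream of the start, at chr3:86548284-86548533 on the minus strand for Mab21l2, chr10:17722978-17723227 on the plus strand for Cited2 and chr15:98789607-98789856 on the plus strand for Wnt1. Capitals mark any match, on either strand, to the 5 motifs searched. The TATA box was searched as TATAAA. The CCAAT box was searched under its own letters, and the GC box was searched as GGGCGG. The core of the motif bound by TCF and LEF factors was searched as CTTTGA. The core bound by HIF factors was searched as ACGTG, which lies within the palindrome marked in Cited2.
Mab21l2: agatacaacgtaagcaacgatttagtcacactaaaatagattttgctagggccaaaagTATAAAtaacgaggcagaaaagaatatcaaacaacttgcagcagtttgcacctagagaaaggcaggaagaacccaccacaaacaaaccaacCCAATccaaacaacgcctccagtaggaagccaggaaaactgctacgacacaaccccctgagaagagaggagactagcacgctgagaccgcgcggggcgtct
Cited2: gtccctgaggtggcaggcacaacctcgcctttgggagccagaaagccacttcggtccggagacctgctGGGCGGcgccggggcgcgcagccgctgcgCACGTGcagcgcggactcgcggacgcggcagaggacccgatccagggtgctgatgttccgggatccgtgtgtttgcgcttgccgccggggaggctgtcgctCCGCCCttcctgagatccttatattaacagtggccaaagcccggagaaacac
Wnt1: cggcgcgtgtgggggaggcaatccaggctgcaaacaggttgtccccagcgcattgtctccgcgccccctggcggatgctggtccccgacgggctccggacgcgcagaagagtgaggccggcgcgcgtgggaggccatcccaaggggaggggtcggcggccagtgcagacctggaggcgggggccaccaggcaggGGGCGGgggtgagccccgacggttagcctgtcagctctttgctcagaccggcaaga

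The promoters differed in composition. GC content was 46.8% for Mab21l2, 66.8% for Cited2 and 71.6% for Wnt1, against a median of 52.4% over 32817 RefSeq promoter windows of that length. Mab21l2 held 1 match to TATAAA, 192 bases upstream of the start, and 1 to CCAAT, 101 bases upstream. These were found in 12.4% and 33.8% of all windows. All matches here are to letters only, and whether any works as a promoter element was not tested. Cited2 held 2 GC boxes and Wnt1 held 1, a motif of 32.7% of windows. In Cited2 the palindrome gave a match to the HIF core on both strands, a motif of 16.6% of windows. None of the 3 windows held the TCF and LEF core, which 13.8% of all windows did. No motif was common to the 3 windows.

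Cited2 was the most covered of the 3 genes in both genotypes. It is ENSMUSG00000039910, on chromosome 10 from 17598966 to 17601422, plus strand. Relative to the median gene, wild-type coverage was 3.11 and 3.75 and KO coverage 16.8 and 15.7, a log2 difference of 2.25 ± 0.17 (SE of the fit). A change in the number of cells that express a gene and a change in its RNA per cell cannot be told apart in these bulk libraries. Its wild-type coverage already exceeded that of 89.0% and 91.6% of genes, and its KO coverage that of 99.4% and 99.5%.

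Mab21l2 had the largest difference of the 3. It is ENSMUSG00000057777, on chromosome 3 from 86452888 to 86455590, minus strand. Wild-type coverage was 0.413 and 0.331 times the median gene and KO coverage 2.97 and 2.65 times, a log2 difference of 2.92 ± 0.18 (SE). Among wild-type genes it stood above only 1.57% and 0.277% of genes, and in the KO above 88.3% in both libraries.

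Wnt1, ENSMUSG00000022997, lies on chromosome 15 from 98687738 to 98691718, plus strand. Its wild-type coverage was 0.409 and 0.302 times the median gene and its KO coverage 1.33 and 1.87 times, a log2 difference of 2.16 ± 0.21 (SE). The genotypes did not overlap for any of the 3 genes, which their choice fixes. Among all genes, 221 of 8297 (2.66%) were called higher in the KO and 258 (3.11%) lower (limma, Benjamini-Hochberg adjusted p under 0.05).

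No deposited gene coverage was below 15 reads in any list, and the wild-type values of Mab21l2 and Wnt1 lay close to that floor. Mab21l2 had 20.8 and 19.0 wild-type reads against 158 and 122 in the KO, and Wnt1 had 20.6 and 17.3 against 70.8 and 86.4. Cited2, with 157 and 215 reads against 894 and 726, was far above the floor in every library. If the deposited value is a mean of whole read counts over positions, the wild-type values of Wnt1 can be had from as few as 7 positions in either library, and the KO values need at least 212 and 217. This least number did not split by genotype for the others: it was 56 and 42 against 61 and 431 for Mab21l2, and 393 and 403 against 470 and 19 for Cited2. Which positions entered a gene's value is not given in the sources used here. If positions under 15 reads were left out, the differences of Mab21l2 and Wnt1 are between covered positions and are not folds of expression.

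**Figure D1:**
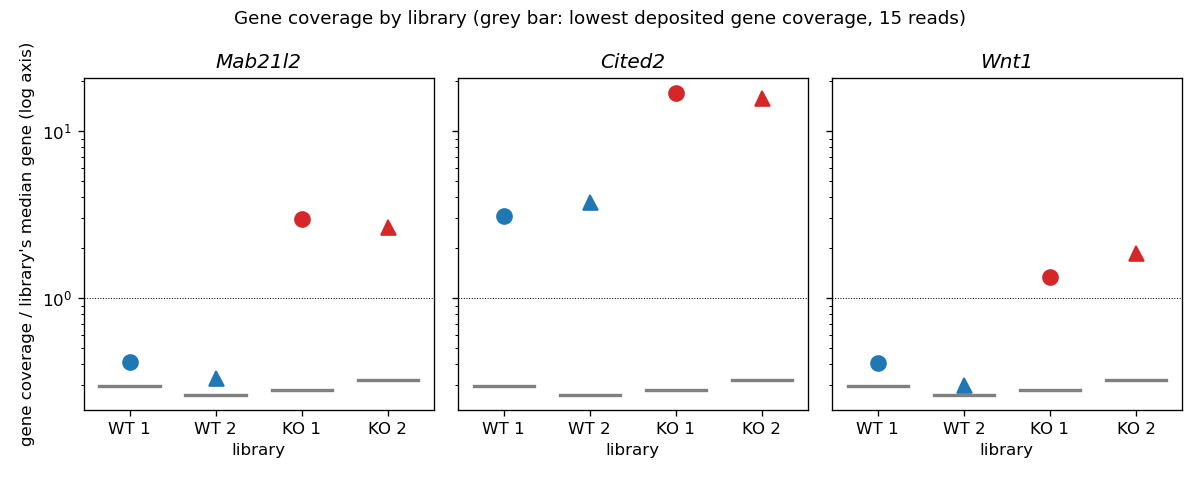
Deposited gene coverage divided by the library's median gene (log axis) for the 3 genes in wild-type (blue) and KO (red) libraries, with 1 point per library. Grey bars mark the lowest gene coverage in the lists, 15 reads; the wild-type points of Mab21l2 and Wnt1 lie just above them, while those of Cited2 lie at 3.11 and 3.75.

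Just below the 3 genes in the order of adjusted p stood Fam181b, followed by Ankrd37 and Rpp38 at the same value (limma adjusted p 0.00193). Fam181b stood at 0.755 and 0.381 times the median gene in wild-type libraries and at 2.58 and 2.85 times in KO libraries, a log2 difference of 2.34, which is larger than that of Wnt1. Its wild-type libraries differed more from each other. Ankrd37, a hypoxia-responsive gene, went from 1.02 and 0.786 times to 2.74 and 2.31 times, a log2 difference of 1.49. Rpp38 went from 0.553 and 0.571 times to 1.33 and 1.43 times, a log2 difference of 1.3.

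The genes most alike in pattern were found from the 4 log2 coverages after taking off each gene's own mean, by the root mean square difference over the 4 libraries. For Wnt1 they were Fam181b (0.245), Cited2 (0.328) and Axin2 (0.359). For Cited2 they were Wnt1 (0.328), Mab21l2 (0.398) and Apcdd1 (0.432), and for Mab21l2 they were Fam181b (0.390), Cited2 (0.398) and Wnt1 (0.447). Axin2, a scaffold of the complex that degrades beta-catenin and a feedback target of canonical Wnt signalling, went from 0.747 and 0.543 to 1.34 and 2.36 times the median gene. Apcdd1, an inhibitor of Wnt signalling, went from 0.429 and 0.726 to 1.67 and 1.41 times. This likeness is a description over 4 libraries only. Taking off a gene's mean leaves its difference between KO and wild type in the pattern, and the members were chosen on that difference. That Mab21l2, Cited2 and Wnt1 stood near each other thus follows at least in part from their choice. Fam181b, with a log2 difference of 2.34, is drawn near them in the same way. Likeness apart from the size of the difference was not tested.

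Levels were not used in choosing the genes, and in Cited2 they could be read in both genotypes. The wild-type lists held 17 and 21 Cited2 sites and the KO lists 17 and 19, although KO coverage was several times higher. Of its 61 listed positions, 5 were in both wild-type lists and none of these 5 was in a KO list. How often positions of both wild-type lists were missing from both KO lists was not counted over all genes. Such an absence therefore does not set Cited2 apart, nor Mab21l2 or Wnt1 below. Sites in every list were rare: 1690 could be tested at a coverage of at least 15 reads, against 881997 positions listed in any library. All 5 Cited2 positions lay in the last 750 bases of the gene span, and none carried the deposited intron mark.

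The first, at position 17600675, was 747 bases before the 3′ end. Its level was 0.349 (Wilson 95% interval 0.299 to 0.402) at 327 reads in wild-type replicate 1 and 0.557 (0.509 to 0.603) at 424 reads in replicate 2. Position 17600912 had 0.153 (0.106 to 0.217) at 163 reads and 0.513 (0.449 to 0.577) at 228 reads. At both positions the wild-type replicates differed by more than counting error. Reads may be PCR copies, so these intervals cover counting error only.

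Position 17600998 had levels of 0.260 (0.210 to 0.316) at 258 reads and 0.198 (0.161 to 0.241) at 379 reads. Position 17601043 was the highest of the 5, with 0.741 (0.653 to 0.813) at 112 reads and 0.587 (0.505 to 0.665) at 143 reads. Position 17601163, 259 bases before the 3′ end, had 0.486 (0.404 to 0.568) at 140 reads and 0.364 (0.306 to 0.427) at 239 reads. The intervals of the replicates overlapped at these 3 positions.

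Scaled by the gene's coverage in each library, position 17600675 would be covered by 1431 to 1868 reads in a KO library. For 17601043, the least covered of the 5, the expected KO coverage was 483 to 640 reads. At such depth a level of 0.1 would give far more than 5 unconverted reads. The KO coverage at these exact positions is not in the lists. The nearest KO sites were 84 and 85 bases from 17600675, at 181 reads in KO replicate 1 and 128 in replicate 2. From 17601043 they were 300 and 453 bases away. In the last 750 bases of Cited2 the wild-type lists held 7 and 8 sites and the KO lists 1 and 0. That window was chosen after the values were seen and was not counted over all genes. In the last 1000 bases Cited2 had 9 and 13 wild-type sites against 6 and 4 KO sites. Over all genes 21.9% and 19.4% of wild-type sites and 19.7% and 23.0% of KO sites lay in the last 1000 bases.

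The deepest KO sites of Cited2 lay just upstream of the last 750 bases. Positions 17600543, 17600548 and 17600560 were in both KO lists. At 17600543 the levels were 0.172 (0.150 to 0.196) at 1017 reads and 0.142 (0.121 to 0.165) at 952 reads. At 17600548 they were 0.216 (0.191 to 0.243) at 955 reads and 0.148 (0.127 to 0.173) at 917 reads. These were the most deeply covered sites of any of the 3 genes. The KO replicates differed by more than counting error at 17600548, while their intervals overlapped at 17600543. The other KO-shared positions, 17599877 and 17599901, had levels between 0.17 and 0.5 at 28 to 130 reads.

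Only 3 Cited2 positions were listed in both genotypes. Position 17600560 had a level of 0.127 (0.0826 to 0.189) at 150 reads in wild-type replicate 2, and 0.151 (0.125 to 0.181) at 629 reads and 0.225 (0.194 to 0.259) at 614 reads in the KO. There too the KO replicates differed by more than counting error. Position 17600554 had 0.361 (0.298 to 0.428) at 208 reads in wild-type replicate 2 and 0.227 (0.199 to 0.257) at 790 reads in KO replicate 1. Position 17599038 had 0.440 (0.267 to 0.629) at 25 reads in wild-type replicate 1 and 0.133 (0.0756 to 0.222) at 83 reads in KO replicate 1. At all 3 positions the KO read counts were the higher ones.

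**Figure D2:**
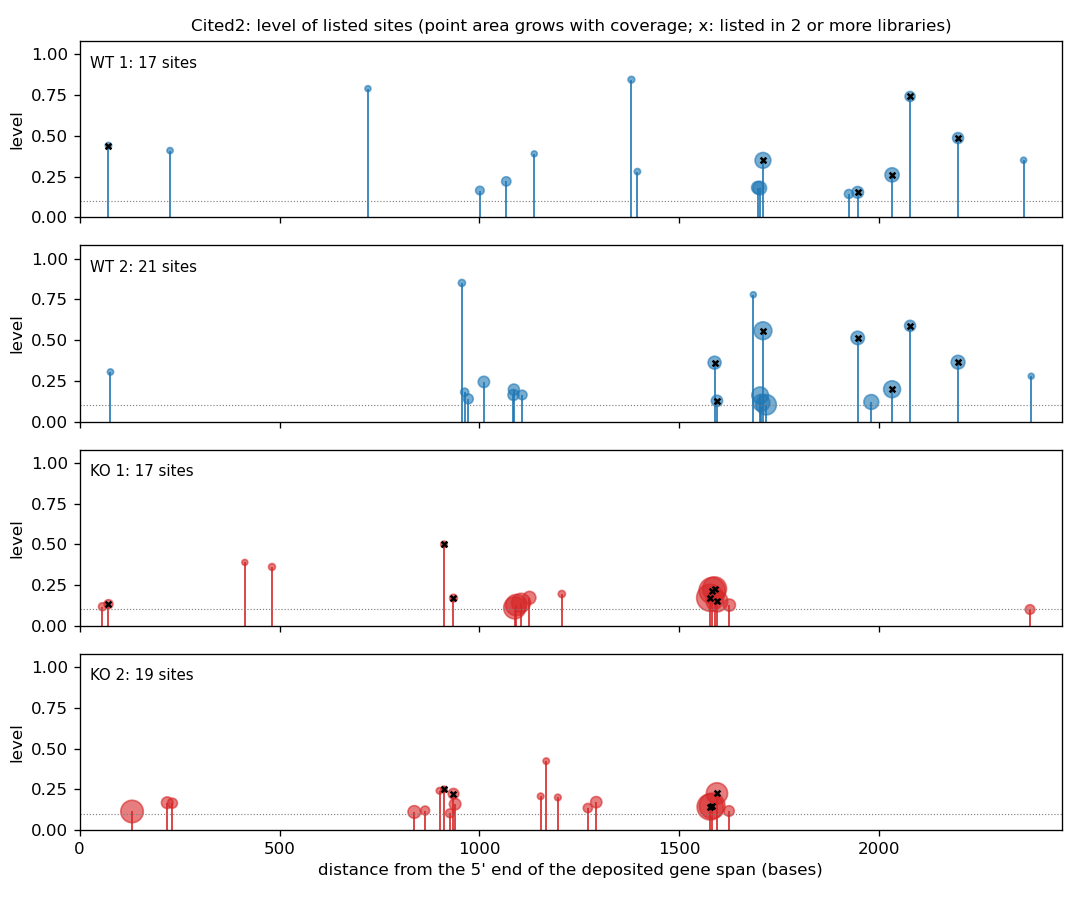
Level of each listed Cited2 site (vertical axis) against its distance in bases from the 5′ end of the gene span, with 1 panel per library; point area grows with coverage, crosses mark positions listed in 2 or more libraries, and the dotted line is the lowest listed level of 0.1. The 5 positions shared by the wild-type libraries lie in the last 750 bases, where the KO libraries list 1 and 0 sites.

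High levels at deep Cited2 sites were seen in the wild type only. With a coverage of at least 100 reads, 3 of 7 and 5 of 15 wild-type sites had a level of at least 0.3, against 0 of 10 and 0 of 11 KO sites. At that depth the highest wild-type levels were 0.741 and 0.587 and the highest KO levels 0.227 and 0.225. Over all genes the share of such deep sites at 0.3 or above was 12.7% and 12.5% for wild-type and 3.45% and 4.60% for KO libraries. The Cited2 sites thus fell the same way as the libraries as a whole, and no test sets them apart from other genes.

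Across all its listed sites the median Cited2 level was 0.349 and 0.198 for wild-type and 0.170 and 0.165 for KO libraries. The group means were 0.273 ± 0.107 and 0.168 ± 0.00354 (SD, n = 2 each; two-sided exact permutation p = 0.333, the smallest that 2 against 2 libraries can give). The difference, -0.106, was about as large as the SD of the wild-type values. The highest levels at 30 or more reads were 0.844 at position 17600346 in wild-type replicate 1 and 0.850 at position 17599922 in replicate 2. Each was seen in that library only, at 32 and 40 reads. In the KO the highest were 0.361 at position 17599447, at 36 reads, and 0.225 at 17600560.

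None of the 139 positions was in all 4 lists, so no site of the 3 genes entered the site test, in which 41 of 1557 sites (2.63%) were lower in the KO and 0 (0%) higher (edgeR; 90 lower and 29 higher at an unadjusted p under 0.05). In the fit without wild-type replicate 1, position 17600560 of Cited2 entered among 2545 sites. Its unconverted share was higher in the KO by 0.65 on the log2 scale and did not pass (edgeR quasi-likelihood adjusted p 0.949). The wild type was then a single library, assumed to vary as the KO pair did. In that fit 71 sites (2.79%) were lower in the KO and 1 (0.0393%) was higher.

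Mab21l2 had few wild-type sites and many KO sites. The wild-type lists held 1 and 2 of its sites and the KO lists 30 and 19, and no position was listed in both genotypes. The wild-type sites were at 86453430, with a level of 0.667 (0.417 to 0.848) at 15 reads, and at 86453620 and 86453629, with 0.381 (0.208 to 0.591) at 21 reads and 0.368 (0.191 to 0.590) at 19 reads. They lay 542 to 741 bases before the 3′ end. From 88 to 175 reads would be expected at these positions in a KO library, and neither KO list held them.

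KO sites of Mab21l2 ran along most of the gene at low levels. The median level was 0.148 and 0.154, and the range was 0.100 to 0.441 in KO replicate 1 and 0.105 to 0.458 in replicate 2. Both KO lists held 2 of its positions. At 86453936 the levels were 0.132 (0.0712 to 0.233) at 68 reads and 0.231 (0.110 to 0.421) at 26 reads, and at 86455085 they were 0.100 (0.0552 to 0.174) at 100 reads and 0.149 (0.0895 to 0.239) at 87 reads. The intervals overlapped at both positions. No site with a coverage of at least 100 reads reached 0.3, and the highest of these were 0.133 and 0.182.

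**Figure D3:**
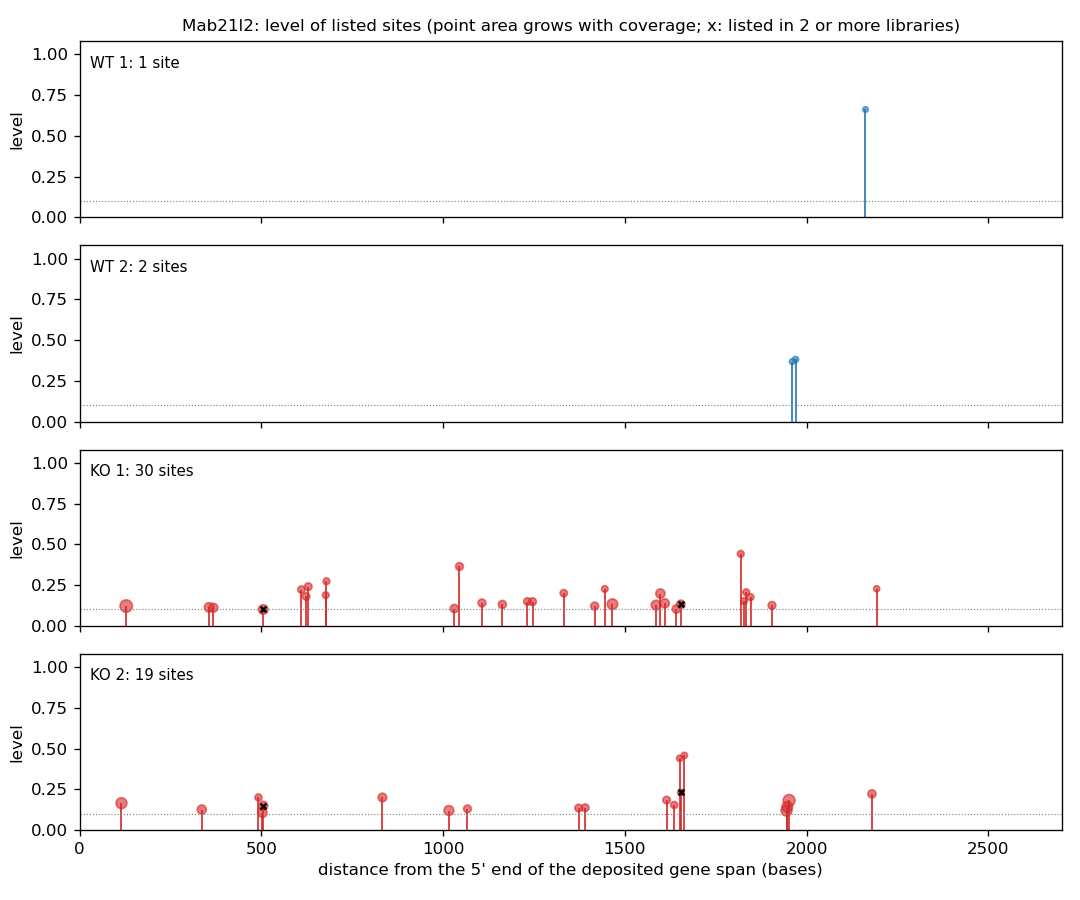
Level of each listed Mab21l2 site against its distance in bases from the 5′ end of the gene span, with 1 panel per library and symbols as for Cited2. The wild-type libraries list 1 and 2 sites, all under 22 reads, and the KO libraries 30 and 19 sites, with median levels of 0.148 and 0.154.

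Most KO sites of Mab21l2 could not have been listed in the wild type at wild-type coverage. With the KO level and the coverage scaled to the wild-type gene value, at least 15 reads and 5 unconverted reads would be expected at 0 of 30 sites of KO replicate 1 in either wild-type library. Of the 19 sites of KO replicate 2, 1 would reach both minima in wild-type replicate 1 and 0 in replicate 2. The number of listed sites thus depends on the coverage by which the gene was chosen.

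Wnt1 had 1 listed site in each wild-type library, at the same position, and 16 and 13 in the KO. Position 98691515, 203 bases before the 3′ end, had a level of 0.333 (0.172 to 0.546), or 7 of 21 reads, in wild-type replicate 1. In replicate 2 all 18 reads were unconverted, a level of 1 (0.824 to 1). The replicates thus differed beyond counting error at this position. It was in neither KO list, where 72 to 90 reads would be expected, and the nearest KO sites were 153 and 45 bases away at 68 and 59 reads.

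The KO sites of Wnt1 had median levels of 0.177 and 0.172. Positions 98690885 and 98691362 were in both KO lists. At 98690885 the levels were 0.175 (0.100 to 0.286) at 63 reads and 0.170 (0.126 to 0.225) at 218 reads. At 98691362 they were 0.132 (0.0712 to 0.233) at 68 reads and 0.136 (0.0798 to 0.223) at 88 reads. These KO replicates agreed within counting error. Of the 16 and 13 KO sites, 9 and 10 lay in the last 1000 bases, as did the wild-type site. Over all genes 21.9% and 19.4% of wild-type sites and 19.7% and 23.0% of KO sites lay there. At wild-type coverage, 0 of the 16 and 2 of the 13 would have reached a list's minima of coverage and unconverted reads.

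**Figure D4:**
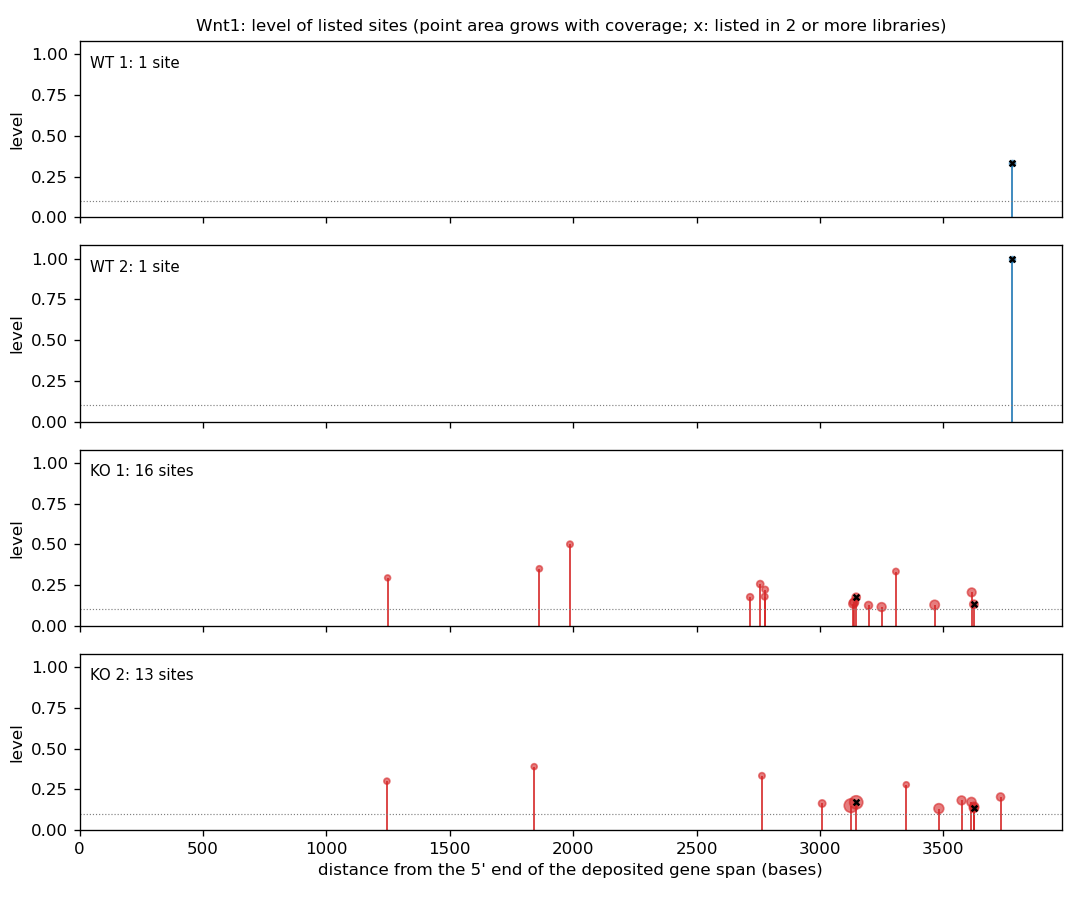
Level of each listed Wnt1 site against its distance in bases from the 5′ end of the gene span, with 1 panel per library and symbols as for Cited2. The single wild-type position, with levels of 0.333 and 1, is absent from both KO panels, which hold 16 and 13 sites.

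All 31 Wnt1 entries carried the deposited intron mark, and none of the 52 Mab21l2 or 74 Cited2 entries did. How that mark was made is not given in the sources used here. Median levels were lower in the KO for Mab21l2, with 0.520 ± 0.207 against 0.151 ± 0.00424, and for Wnt1, with 0.666 ± 0.472 against 0.174 ± 0.00354 (SD, n = 2 each; two-sided exact permutation p = 0.333 for both). The wild-type medians of these genes rest on 1 or 2 sites of 15 to 21 reads. At 15 reads the minimum of 5 unconverted reads already sets a level of 0.333.

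Some sites of the 3 genes had a listed neighbour within 10 bases. This held for 7 and 8 Mab21l2 sites, 6 and 5 Cited2 sites and 7 and 3 Wnt1 sites in the KO lists. In the wild type it held for 3 and 11 Cited2 sites and for 0 and 2 Mab21l2 sites, and for no Wnt1 site. Over all genes 24.1% and 25.6% of wild-type sites and 26.0% and 28.5% of KO sites had such a neighbour.

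The deposited conversion rate of a gene, the share of its adenosine read as G, is a second readout not used in choosing the genes. For Cited2 it was 95.0% and 94.8% in wild-type and 97.3% and 97.0% in KO libraries. The median gene also had the higher rates in the KO, with 96.1% and 96.2% against 97.2% and 96.6%. Over all genes the median change was 0.633 percentage points, and the change of 2.26 points in Cited2 was larger than in 89.5% of genes. It did not pass the threshold: the log2 odds differed by 0.88 ± 0.21 (SE; limma adjusted p 0.141). No gene passed in either direction (0% of 8297 higher and 0% lower), while 1669 were higher and 51 lower at an unadjusted p under 0.05.

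For Mab21l2 the rate was 95.4% and 98.0% against 97.1% and 96.4% (limma adjusted p 0.907). For Wnt1 it was 97.9% and 91.7% against 97.2% and 96.7% (limma adjusted p 0.718). In both genes the wild-type libraries differed from each other more than the genotypes did. Leaving out wild-type replicate 2 turned the sign for both genes, to 0.50 and -0.56 on the log2 odds scale.

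The other genes of the Wnt pathway were read from lists of known genes, of which the 3 genes were left out. Of 20 further ligands and secretion factors, 5 had a coverage in all libraries and 1 passed: Wls, which carries Wnt proteins to the cell surface, rose from 1.82 and 1.77 to 3.91 and 3.15 times the median gene (log2 difference 0.97 ± 0.17 SE; limma adjusted p 0.0100). Wnt5a, Wnt5b, Wnt9a and Porcn did not pass. Wnt9a, at 0.386 and 0.384 against 0.589 and 0.564 times, came nearest (limma adjusted p 0.0580). Wnt10b had no wild-type site against 4 and 7 in the KO, and Wnt8b had 0 and 1 against 16 and 4. Wnt5b went the other way, with 13 and 16 against 8 and 5, and over the list the sites summed to 53 and 59 against 56 and 78. The median log2 difference of the 5 was 0.47, against -0.02 over all genes.

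Among 21 feedback and target genes of canonical Wnt signalling, 9 could be tested, and 3 passed as higher and 0 as lower. These were Axin2 (log2 difference 1.48 ± 0.25), Apcdd1 (1.46 ± 0.23) and Sp8 (1.06 ± 0.17), a zinc finger factor (SE; limma adjusted p 0.00887, 0.00625 and 0.00671). Nkd1 at 0.60 ± 0.16 did not pass (limma adjusted p 0.0546), nor did Myc, Tcf7, Znrf3, Ccnd1 or Lef1. The median was 0.35. Sp5, a direct target of the pathway, had no wild-type site against 12 and 9 in the KO, and Dkk1, a secreted antagonist, had 0 and 2 against 11 and 11. Lef1, with 19 and 39 against 12 and 15, and Ccnd1, with 29 and 35 against 23 and 26, went the other way. Nkd2 had 3 and 5 against 0 and 5. Of the 21 genes, 14 had a listed site in any library, and the list's sites summed to 109 and 170 against 254 and 246.

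Genes of the midbrain, isthmus and dorsal neural tube, where Wnt1 is normally made, mostly lacked a coverage value in at least 1 library, and 9 of the 20 had no listed site in any. Of 20, 4 could be tested, and 2 passed as higher and 0 as lower. Msx2 went from 0.551 and 0.421 to 1.16 and 1.09 times the median gene (log2 difference 1.22 ± 0.18; limma adjusted p 0.00408) and Lmx1b from 0.410 and 0.447 to 0.706 and 1.06 times (1.01 ± 0.20; limma adjusted p 0.0173). En1 and Pax2 did not pass. The list's median was 0.71.

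Untested members of that list that had sites in both libraries of a genotype are given here. Lmx1a, a roof plate factor, had 0 and 0 wild-type sites against 13 and 18 KO sites, at 0.858 and 0.812 times the median gene. Pax3, a factor of the dorsal neural tube and neural crest, had 0 and 0 against 36 and 12, at 0.998 and 0.744 times. Msx1 had 1 and 0 against 10 and 12 and Irx3 1 and 0 against 21 and 17. Fgf8, the ligand of the isthmus, went the other way, with 2 and 1 wild-type sites at 0.737 and 0.685 times the median gene and 0 and 0 KO sites. Over the list the sites summed to 37 and 48 against 162 and 115.

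**Figure D5:**
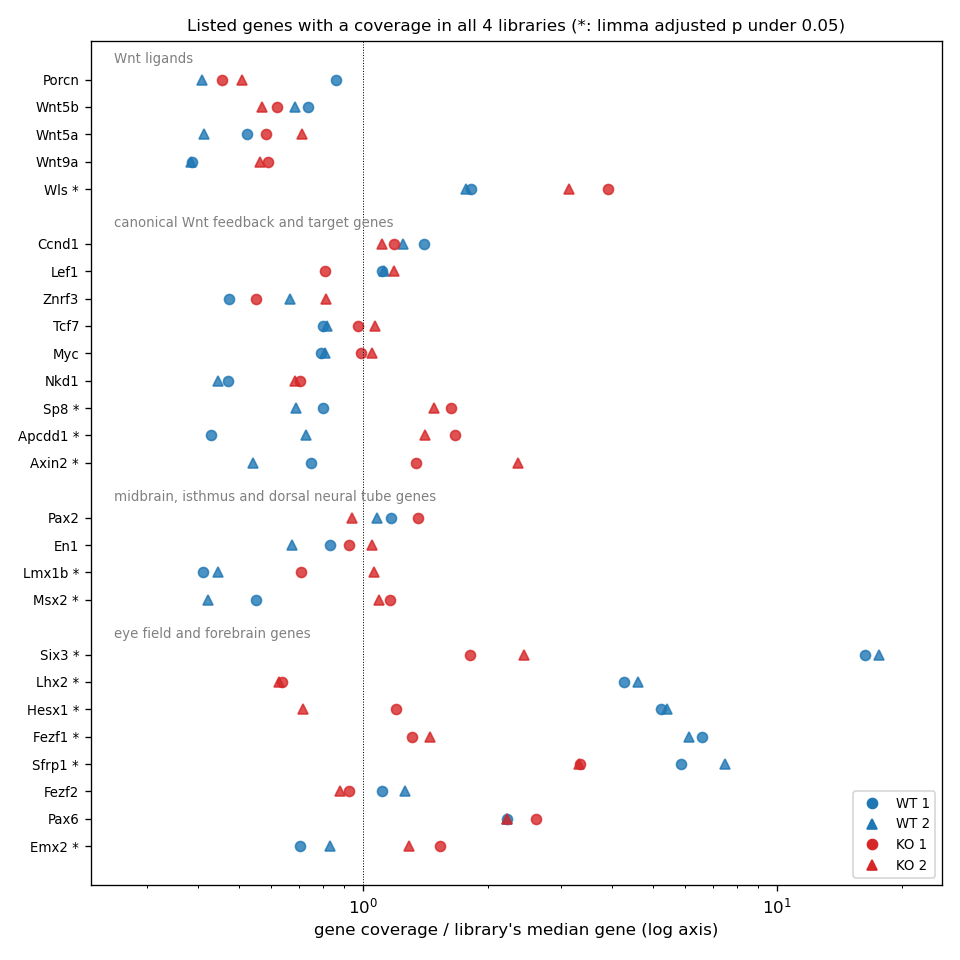
Gene coverage divided by the library's median gene (log axis) for each gene of 4 lists with a value in all 4 libraries; blue is wild type, red is KO, and circles and triangles are replicates 1 and 2. Stars mark a limma adjusted p under 0.05: Wls, Axin2, Apcdd1, Sp8, Lmx1b, Msx2 and Emx2 were higher in the KO, and Six3, Lhx2, Hesx1, Fezf1 and Sfrp1 were lower.

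These calls depended on single libraries. Without KO replicate 2 none of Wls, Axin2, Apcdd1, Sp8, Lmx1b and Msx2 passed, and the higher genes over the whole table fell from 221 to 4. Without KO replicate 1, Axin2 and Lmx1b passed and the whole table held 20. Without wild-type replicate 2 all 6 passed and the table held 105. With the most frequent value inside a gene taken as its coverage, the table held 25 higher genes and none of the 6.

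Most tested genes of the eye field and forebrain list were lower in the KO. Of 14, 8 could be tested, and 5 passed as lower and 1, Emx2, as higher, with a median log2 difference of -1.60. Hesx1, an early forebrain repressor, went from 5.25 and 5.42 to 1.20 and 0.717 times the median gene (-2.52 ± 0.22; limma adjusted p 0.000138). Fezf1 went from 6.58 and 6.12 to 1.31 and 1.45 times (-2.20 ± 0.17; limma adjusted p 3.02e-05). Six3, Lhx2 and Sfrp1 were the others. Pax6 did not pass, at 2.22 and 2.23 against 2.61 and 2.23 times. Of the untested genes, Dlx5 had more KO sites, with 1 and 0 wild-type sites against 3 and 10. Mitf had 1 and 0 against 0 and 0. Rax, the marker of the labelled tissue, had 20 and 35 wild-type sites, at 3.64 and 3.04 times the median gene, and no listed site in the KO, where its coverage is therefore not known. At least 4 of these falls passed without any 1 library, and 2 with the most frequent gene value. The Emx2 call was lost without wild-type replicate 1 or either KO library and with the most frequent gene value.

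No tested partner or relative of Cited2 passed. Of 13, 6 were tested and 0 passed in either direction in limma, with a median log2 difference of -0.05. At an unadjusted limma p under 0.05 there was 1, Vegfa, which was lower. Over all 8297 genes 909 were higher and 1014 lower at that p. Ep300 and Crebbp, the co-activators that Cited2 binds, changed by 0.10 ± 0.16 and 0.28 ± 0.17, and Hif1a by -0.25 ± 0.17 (SE; limma adjusted p 0.770, 0.356 and 0.397). Cited4 had no wild-type site against 3 and 1 in the KO. Of the relatives of Mab21l2, only Mb21d2 could be tested, and it was higher by 0.94 ± 0.17 (SE; limma adjusted p 0.0100). That call was lost without wild-type replicate 2 or either KO library and with the most frequent gene value. Mab21l1, the closest paralog, had 0 and 0 wild-type sites against 0 and 1.

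BMP response genes, which share Msx1 and Msx2 with the dorsal list, moved both ways. Of 15, 8 were tested: Msx2 and Bambi (0.76 ± 0.17; limma adjusted p 0.0266) were higher, and Id2 (-1.03 ± 0.17; limma adjusted p 0.00872) was lower. The list's median was -0.08. Bambi, a decoy receptor, did not pass without wild-type replicate 2, without either KO library or with no centring, and Id2 did not pass without either KO library. Neither passed with the most frequent gene value.

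Markers of other cell types were read beside these results. Of 11 neural crest markers, 9 had a site, 3 were tested and 0 passed in limma or at an unadjusted p under 0.05. Over all 8297 genes 909 were higher and 1014 lower at that unadjusted p. The sites of the 11 markers summed to 29 and 40 against 78 and 60, and Pax3 alone gave 36 and 12 of the KO sites. Pax3, Twist1 and Tfap2b were listed only in the KO, and Tfap2a and Ets1 were at 0 in every library. Snai2 went the other way, with 0 and 1 wild-type sites against 0 and 0. Surface ectoderm markers had 44 and 58 sites against 57 and 66, and of 3 tested, Krt18 was lower (-0.74 ± 0.19; limma adjusted p 0.0411), a call lost on leaving out any 1 library and with the most frequent gene value. Mesoderm and endoderm markers had 5 and 5 sites against 1 and 0, with T, Mixl1 and Sox17 at 0 in every library. Of 7 pluripotency and epiblast markers tested, 3 (Utf1, Fgf5 and Pou5f1) were lower and 0 higher, with a median of -0.68. The number lower was 1 without wild-type replicate 2 or KO replicate 1, and 0 without KO replicate 2 or with the most frequent gene value. The part of a shift in cell types in the coverage of the 3 genes was not tested.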

How the data were processed

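The deposited lists, 1 per library and not pooled, give counts of reads with A or G and with A at each site. Per the file headers they also hold the fraction of unconverted reads, the gene's conversion fraction, its coverage signal and the authors' p-values. The aligner and the caller are not given in the sources used here. The submitters' processing notes name mm10, yet 0 of the 157 entries lay at the genes' GRCm38.p6 places. Coordinates are therefore printed as listed, with no build, and sequence around the sites was not used here.

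Repeated positions (28 to 53 per list) were collapsed. A site was given to a protein-coding gene where exactly 1 on its strand spanned it. Values found on both strands across a chromosome, values shared by genes and genes with several values were left out. Log2 coverage was centred on the library's median gene over 8297 genes and tested with limma 3.58.1 in R 4.3.3. The log2 odds of conversion were tested likewise, and site counts (at least 20 reads in each library) with edgeR 4.0.16.

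Named genes were all 3 members, their shared or highest sites, the nearest patterns and at most 4 list genes per direction by adjusted p. Further ones were named to complete a list. Mettl3 and the higher genes next in adjusted p were named as well. Members and lists were chosen with earlier results of these data known. Alternatives left out each library and changed block, centring, pseudocount, filters, gene value and test.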

Additional observations from a re-analysis of the deposited data

How the results depend on the processing

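Because the genes were chosen on it, the log2 coverage difference was all but bound to keep its sign. It did so for all 3 genes under all 9 alternatives. It ranged from 2.76 to 3.08 for Mab21l2, from 2.11 to 2.38 for Cited2 and from 1.92 to 2.41 for Wnt1. With the most frequent gene value Wnt1 would not have been called (limma adjusted p 0.0665). Differences in median level stayed negative but rested on single wild-type libraries. They were -0.223, -0.0305 and -0.825 without wild-type replicate 1 for Mab21l2, Cited2 and Wnt1, and -0.516, -0.181 and -0.158 without replicate 2, against -0.37, -0.106 and -0.492. No wild-type site of Mab21l2 or Wnt1 had 30 reads, so that alternative could be run for Cited2 only, where it gave -0.0545. With 1 library left out, its lone partner was assumed to vary like the other pair. This gave 4 to 213 higher and 14 to 189 lower genes for coverage, against 221 and 258. It gave 0 to 8 higher and 0 to 157 lower sites, against 0 and 41, and 0 to 38 higher and 0 to 7 lower genes for the conversion rate, against 0 and 0. The log2 odds of conversion then ran from -0.72 to 0.50 for Mab21l2, with 0.05 without KO replicate 2, and from -0.56 to 1.52 for Wnt1. The most frequent gene value gave 25 higher and 14 lower genes, and no centring 101 higher. For sites, limma on log2 odds called 1 higher and the replicate block 4. The causes were not tested. Replicate numbers did not pair the libraries (correlation of deviations -0.03 for coverage), and the replicate block gave 533 higher and 43 lower genes for the conversion rate, without Cited2 (limma adjusted p 0.0853). Depth limits Mab21l2 and Wnt1 in the wild type, where 15 reads is the floor.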
